A study of Saccharomyces cerevisiae with 8 samples.

Results

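The Upf1-dependent RNAs of Saccharomyces cerevisiae were measured by comparing a upf1 mutant with its wild type (WT) in the solvent DMSO alone. The comparison is drawn between 4 of the 8 libraries of the series, WT DMSO replicates 1 and 2 and upf1 DMSO replicates 1 and 2. It covers all 11966 features of the deposited table, of which 11579 were tested. Each library was made, keeping the strand, from total RNA after removal of ribosomal RNA, and the cells were in mid-log phase in YPD at 30°C and had received DMSO for 30 min. Both groups are BY4741, a haploid strain of mating type a, and both carry his3Δ1, leu2Δ0, met15Δ0 and ura3Δ0. The mutant also carries an allele labelled upf1*::kanMX4, a drug-resistance cassette at UPF1 whose exact extent is not given in the sources used here. The labels call the replicates biological, and whether they came from separate clones of the mutant is not given. The other 4 libraries received anisomycin, which blocks peptide bond formation, at 100 µg/ml for 30 min. Their values do not enter the DMSO differences themselves. They do enter the shared estimate of spread behind the standard errors and p-values, and the choice of features tested.

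The helicase Upf1 (gene NAM7) drives nonsense-mediated decay (NMD), the cytoplasmic pathway that destroys RNAs on which a ribosome stops too early. In yeast, Upf1 acts with Upf2 (gene NMD2) and Upf3, and the message is then decapped and digested from its 5′ end. Known substrates carry a premature stop codon, a short reading frame upstream of the start, a programmed frameshift, a retained intron or a long stretch after the stop codon, and noncoding RNAs that ribosomes bind can enter the pathway as well.

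Stop codons that lie inside an annotated reading frame are the plainest such feature, and the R64 genome sequence (RefSeq) shows them in 7 pseudogenes that were tested here. The windows below give 5 codons before and 5 codons after the first in-frame stop, 5′ to 3′ on the gene's strand, with the stop codon in capitals. FLO8, an activator of flocculin genes, stops at codon 142 of 800, and CRS5, a copper-binding metallothionein, at codon 9 of 70. CCW22 stops at codon 67 of 137, AAD6 at codon 213 of 375, SDL1 at codon 128 of 339, YIR043C at codon 62 of 379 and YOL153C at codon 131 of 582.
FLO8 (chrV:377174-377206, minus strand): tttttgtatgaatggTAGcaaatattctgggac
CRS5 (chrXV:389222-389254, plus strand): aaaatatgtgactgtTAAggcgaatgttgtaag
CCW22 (chrIV:721266-721298, minus strand): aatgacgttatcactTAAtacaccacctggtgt
AAD6 (chrVI:14778-14810, minus strand): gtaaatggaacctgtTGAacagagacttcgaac
SDL1 (chrIX:29398-29430, plus strand): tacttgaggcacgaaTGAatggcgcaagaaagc
YIR043C (chrIX:437979-438011, minus strand): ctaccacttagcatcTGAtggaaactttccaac
YOL153C (chrXV:38160-38192, minus strand): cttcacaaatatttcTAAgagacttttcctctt

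In 3 further genes the ribosome must slip by 1 base to make the whole protein, and a ribosome that does not slip meets a stop codon soon after. The shift site is in capitals. Without the shift, EST3, a telomerase subunit, ends at codon 94 with TGA, which is 1 codon after the site. ABP140, an actin-binding protein, ends at codon 280, 2 codons after the site, and OAZ1, the ornithine decarboxylase antizyme, ends at codon 70 within the site itself.
EST3 (chrIX:335916-335957, minus strand): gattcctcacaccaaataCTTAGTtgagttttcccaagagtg
ABP140 (chrXV:785667-785708, plus strand): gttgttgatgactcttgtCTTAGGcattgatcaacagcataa
OAZ1 (chrXVI:458985-459026, plus strand): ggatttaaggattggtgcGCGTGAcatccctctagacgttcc

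A retained intron brings in a stop codon in nearly every yeast gene that has one. Of the 263 tested genes with an intron in the coding sequence, 252 (95.8%) hold an in-frame stop in the unspliced first intron. Of the 252, 48 were called higher in the mutant by the test given below (median log2 difference 0.09). Of the 11 tested genes without such a stop 3 were (median 0.29). Over all tested protein-coding genes the share called higher was 23.2%. Shown are 4 genes with such a stop, chosen among those called higher. Each sequence starts with the last coding bases of the first exon (9 bases, or from the start codon where the exon is shorter). It runs through the first in-frame stop, which is in capitals.
RPL22B (chrVI:64912-64929, minus strand): gctccaaacgtacgtTAA
HFM1 (chrVII:31562-31587, minus strand): ctccaaatagtagtaacgaagctTAG
IWR1 (chrIV:254995-255053, minus strand): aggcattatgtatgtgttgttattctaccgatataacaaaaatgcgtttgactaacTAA
MAY24 (chrXVI:833689-833760, plus strand): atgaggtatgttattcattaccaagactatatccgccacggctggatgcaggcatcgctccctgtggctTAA

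The values are the deposited normalized densities, which are reads per nucleotide of the feature times 1 factor per library. They correspond to totals of 6954353 and 9247260 reads in WT and 9484034 and 10637051 in the mutant. On this scale the small nucleolar RNAs (snoRNAs) of both genotypes lay level as group means (median log2 difference 0.0003 over 76 snoRNAs). The median snoRNA density by library was 3.53 and 3.64 in WT and 3.01 and 3.95 in the mutant. Thus upf1 DMSO replicate 1 lay below both WT libraries and upf1 DMSO replicate 2 above both. NAM7 (YMR080C, chromosome XIII, 426712 to 429627) fitted the labels, with densities of 0.432 and 0.449 in WT and 0.0113 and 0.00975 in the mutant, 2.39% of WT. Of its neighbours, CTF18, SEC14 and ISF1 were not called different (log2 0.30, 0.02 and -0.09), and YMR082C lay below the limit for testing. LEU2 had at most 2 reads and URA3 at most 1 in each DMSO library, while HIS3, whose allele keeps part of the gene, had densities of 0.238 and 0.207 in WT and 0.265 and 0.279 in the mutant. MET15 (MET17) was not analysed here. With 2 biological replicates a group, the p-values below measure the spread between these libraries. In such bulk samples a change in the RNA per cell and a change in the number of cells that make it cannot be told apart.

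Many RNAs were higher in the mutant and few were lower. Differences are given as upf1 minus WT on the scale of log2(density + 0.003397), with the standard error (SE) of a limma fit to all 8 libraries and p-values adjusted by Benjamini and Hochberg over the 11579 features, called below 0.05. The added constant understates the difference of sparse RNAs. The libraries keep the strand, but whether the counting used it is not given in the sources used here, so RNAs that overlap on opposite strands may share reads. Of all features 3663 (31.6%) were higher and 71 (0.613%) lower, with a median difference of 0.32. Of 5778 protein-coding genes 1340 (23.2%) were higher and 45 (0.779%) lower, with a median of 0.10. Among the protein-coding genes called higher the median difference was 1.05, 714 of them differed by at least 1 on the log2 scale, 159 by at least 2 and 20 by at least 3. Rescaling the 4 libraries to a common protein-coding level moved the protein-coding median from 0.10 to -0.01. On that scale 1288 protein-coding genes (22.3%) were higher and 643 (11.1%) lower, and over all features 3310 (28.6%) and 710 (6.13%). Rescaling over all 8 libraries gave 1269 (22%) and 1719 (29.8%) of protein-coding genes. Below, counts after rescaling are for the 4 DMSO libraries, with those for all 8 named as such. Without upf1 DMSO replicate 1 the count of protein-coding rises was 831, and without any of the other 3 libraries it was between 979 and 1045. The 45 protein-coding falls became 18 without WT DMSO replicate 1 or upf1 DMSO replicate 2, 24 without upf1 DMSO replicate 1 and 44 without WT DMSO replicate 2.

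**Figure D1:**
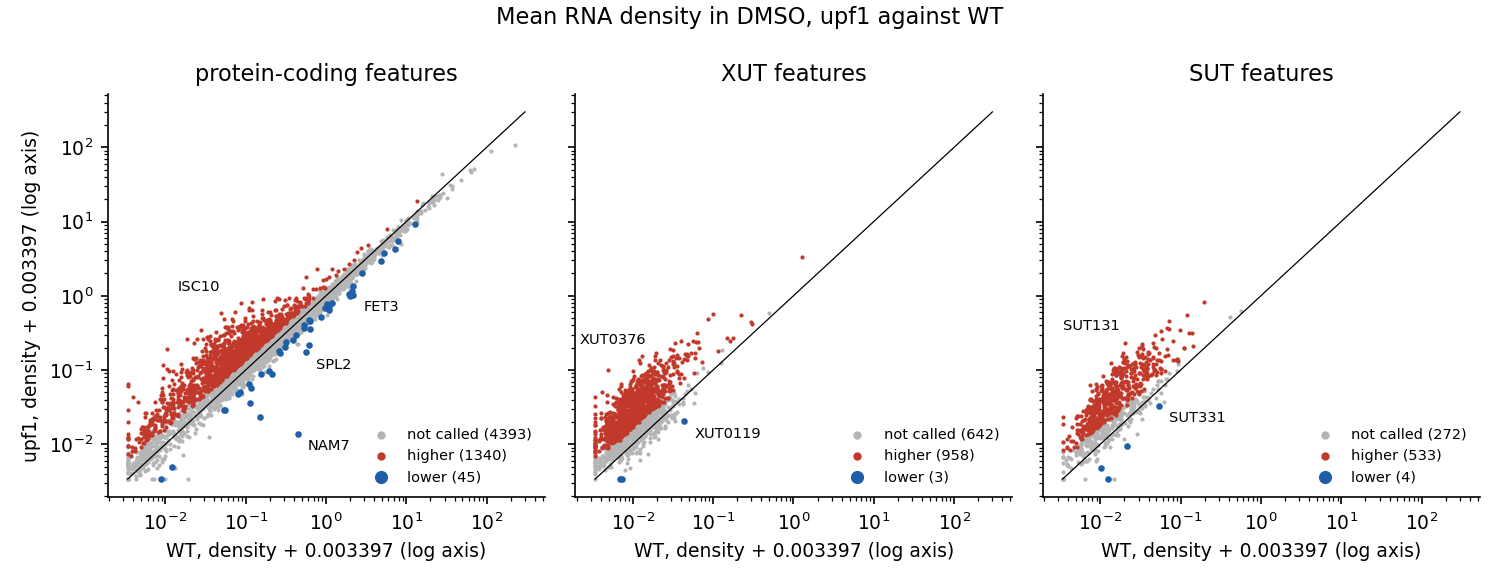
Mean density of each tested feature in WT (x axis) and upf1 (y axis) in DMSO, both with 0.003397 added and on log axes, for protein-coding genes, XUTs and SUTs. Each point is a feature, red where it was called higher, blue where lower and grey where neither, and the line marks equal density. Protein-coding rises sit mostly among RNAs of low density, while XUTs and SUTs lie above the line as a body.

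Rare mRNAs were called higher far more often than abundant ones. In 10 bins of equal size by mean density in DMSO, 34.8% of protein-coding genes were called higher in the lowest bin and 32.2% in the fourth, against 8.82% in the ninth and 3.29% in the highest. The median difference fell along the same bins from 0.56 to -0.10. The bins were set on the mean of the 4 libraries, which itself includes the mutant.

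The genes of the NMD machinery other than NAM7 split. NMD4, which encodes a Upf1-binding cofactor, had densities of 0.122 and 0.119 in WT and 0.570 and 0.480 in the mutant, and rose by 2.09 ± 0.16 (SE, adjusted p = 1.83e-05). EBS1, a relative of the telomerase protein Est1 that takes part in NMD, stood at 0.181 and 0.175 in WT and 0.426 and 0.411 in the mutant, and rose by 1.22 ± 0.17 (adjusted p = 0.000329). The mutant libraries lay above both WT libraries for both genes. NMD2, encoding Upf2, had 0.113 and 0.105 in WT and 0.163 and 0.130 in the mutant, a difference of 0.40 ± 0.18 that was not called (adjusted p = 0.131). UPF3 had 0.0558 and 0.0481 in WT and 0.0539 and 0.0552 in the mutant, groups that overlap (0.07 ± 0.17, adjusted p = 0.816). Of 26 genes for decapping, 5′ digestion, deadenylation and translation termination, limma called none in either direction, nor did any have an unadjusted p below 0.05 (median -0.03, range -0.34 to 0.31), and 5 were lower after rescaling to protein-coding genes (16 over all 8 libraries).

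Most mRNAs that the literature names as NMD substrates were higher in the mutant. Of a list of 24 drawn from general knowledge, 19 rose (79.2%, median 1.11), against 23.2% of all protein-coding genes. STN1, which caps telomeres, had densities of 0.0544 and 0.0591 in WT and 0.390 and 0.351 in the mutant, and rose by 2.63 ± 0.16 (adjusted p = 1.29e-05). CPA1, the small subunit of carbamoyl phosphate synthetase, whose mRNA carries a regulatory upstream reading frame, went from 0.216 and 0.295 to 0.912 and 0.888 and rose by 1.82 ± 0.18 (adjusted p = 5.25e-05). ALR1, a plasma membrane magnesium transporter, went from 0.243 and 0.257 to 0.543 and 0.498 and rose by 1.05 ± 0.17 (adjusted p = 0.00117). In each of these genes, taken from those called higher, the groups lay well apart. The share of all tested features with groups apart in DMSO was not counted.

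The smallest called differences in the list were those of the ribosomal protein gene RPL28 (0.48 ± 0.12), the activators UGA3 (0.57 ± 0.17) and ADR1 (0.70 ± 0.21), PPR1, the activator of pyrimidine genes (0.72 ± 0.18), CRS5 (0.82 ± 0.22) and FZF1, an activator of sulfite export (0.83 ± 0.19). ADR1 and UGA3 lost their calls when any of the 4 libraries was left out, PPR1 without WT DMSO replicate 1 or upf1 DMSO replicate 1, and FZF1 without upf1 DMSO replicate 2. RPL28 and CRS5 lost theirs when any library but WT DMSO replicate 1 was left out, and RPL28 also after rescaling over all 8 libraries. The 5 not called were SSY5 (0.11 ± 0.17), CTR2 (0.18 ± 0.13), MAC1 (0.22 ± 0.17), SPT10 (0.48 ± 0.19) and YRA1 (-0.24 ± 0.16). For YRA1, whose unspliced RNA is known to be destroyed in the cytoplasm by a route that uses Edc3, densities were 1.10 and 1.06 in WT and 0.893 and 0.928 in the mutant, and it was called lower by limma after rescaling (-0.37, adjusted p = 0.0343) and over all 8 libraries (-0.49, adjusted p = 0.00274). SPT10 was called higher by limma after rescaling (adjusted p = 0.0467) and over all 8 libraries (adjusted p = 0.048). SSY5, whose densities of 0.123 and 0.142 in WT and 0.152 and 0.133 in the mutant overlapped, encodes a protease that senses amino acids.

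**Figure D2:**
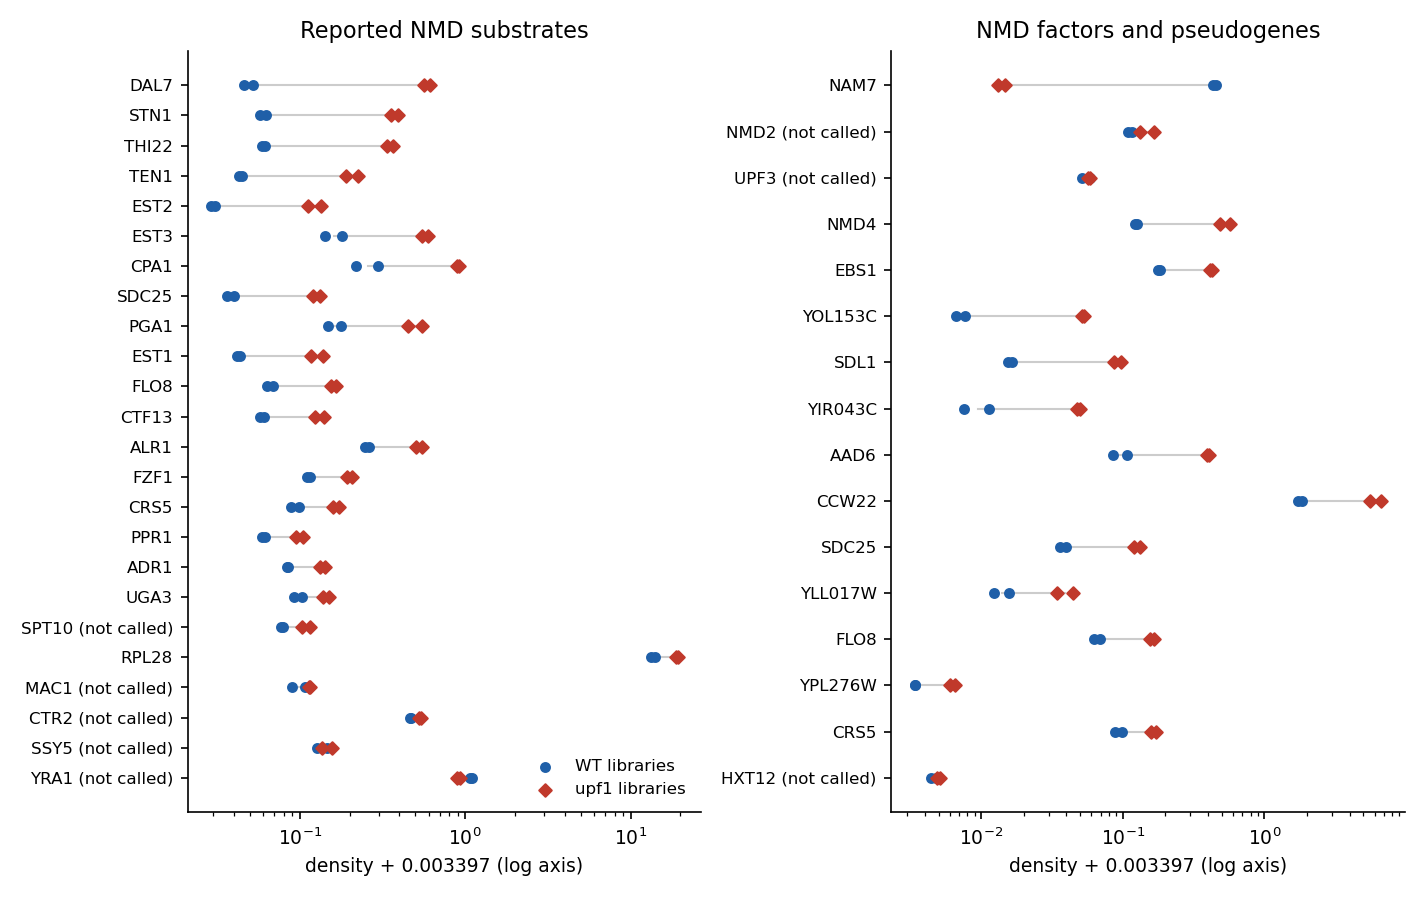
Density in every DMSO library, with 0.003397 added and on a log axis, for the 24 reported NMD substrates (left) and for the NMD factors and the 11 tested pseudogenes (right). Blue circles are the 2 WT libraries, red diamonds the 2 upf1 libraries, and the grey line joins the group means. The 2 genotypes do not overlap in most rows, and for NAM7 the mutant lies far to the left. The share of all tested features without overlap in DMSO was not counted.

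The pseudogenes with an internal stop codon, whose sequences stand above, were all called higher. FLO8 had densities of 0.0652 and 0.0597 in WT and 0.162 and 0.151 in the mutant (1.28 ± 0.18, adjusted p = 0.00036), and CRS5, with its stop at codon 9, had 0.0955 and 0.0854 in WT and 0.170 and 0.155 in the mutant (0.82 ± 0.22, adjusted p = 0.0168). CCW22 was the most abundant, at 1.73 and 1.84 in WT and 5.53 and 6.71 in the mutant (1.77 ± 0.19, adjusted p = 9.67e-05). The mutant libraries exceeded both WT libraries in each.

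AAD6, a relative of aryl-alcohol dehydrogenase genes, went from 0.0813 and 0.104 to 0.403 and 0.389 (2.07 ± 0.17) and SDL1, a relative of serine dehydratase genes, from 0.0121 and 0.0131 to 0.0941 and 0.0827 (2.52 ± 0.19). YOL153C went from 0.00328 and 0.00434, which is 6 and 11 reads, to 0.0502 and 0.0480 (2.87 ± 0.23), and YIR043C from 0.00413 and 0.00796, 3 and 8 reads, to 0.0445 and 0.0461 (2.40 ± 0.25). The place of the stop did not order these values, since CRS5, with the earliest stop, had the smallest difference and YOL153C, with its stop in codon 131, the largest. CRS5 kept its call only without WT DMSO replicate 1 when libraries were left out in turn. The other 4 tested pseudogenes have an open frame to the annotated end. Of those, SDC25 (1.73 ± 0.17) and YLL017W (1.49 ± 0.33) rose, YPL276W, with 0 reads in WT and densities of 0.00313 and 0.00265 in the mutant, was called higher but not when any of the 4 libraries was left out, and HXT12, with 2 reads in each WT library, was not called (0.12 ± 0.39). In all, 10 of 11 were called higher (90.9%), against 31.6% of all features.

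The 3 frameshift genes did not move alike. EST3 had densities of 0.139 and 0.176 in WT and 0.592 and 0.546 in the mutant and rose by 1.84 ± 0.16 (adjusted p = 2.94e-05). OAZ1 had 0.105 and 0.124 in WT and 0.150 and 0.137 in the mutant, a difference of 0.32 ± 0.19 that was not called (adjusted p = 0.251). ABP140 had 0.467 and 0.462 in WT and 0.487 and 0.420 in the mutant, so that its groups overlapped (-0.04 ± 0.16, adjusted p = 0.897).

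Genes with an intron were called higher at about the rate of all protein-coding genes, a comparison that does not allow for density. Median WT density was 0.506 over the tested genes with an intron and 0.148 over all protein-coding genes, and rises were rarer at higher density. Of 263 tested, 51 rose and none fell by limma (19.4%, median 0.09), with 71 higher and 0 lower at an unadjusted p below 0.05, and 49 rose and 28 fell after rescaling, with the median at -0.02 (45 and 87 over all 8 libraries). Feature lengths covered the intron in 259 of the 263, so spliced and unspliced RNA are summed and their shares were not measured. The rises lay mostly outside the ribosomal protein genes, with 47 of 174 (27.0%, median 0.27) against 4 of 89 (4.49%, median -0.09). Without upf1 DMSO replicate 1 the 47 became 25 and the 51 became 26, and without WT DMSO replicate 2 the 51 became 33. The rises of ribosomal protein genes numbered 1 or 2 when any of the 4 libraries was left out.

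Among the genes with an intron, RPL22B, a ribosomal protein gene whose product blocks the splicing of its own RNA, had densities of 0.778 and 0.744 in WT and 2.27 and 2.31 in the mutant (1.58 ± 0.12, adjusted p = 1.89e-05). IWR1, which carries RNA polymerase II into the nucleus, went from 0.0979 and 0.0806 to 0.427 and 0.377 (2.13 ± 0.19), and MAY24 from 0.0569 and 0.0537 to 0.256 and 0.247 (2.12 ± 0.17). NBL1, a subunit of the chromosomal passenger complex, went from 0.0397 and 0.0668 to 0.372 and 0.370 (2.77 ± 0.25). In these 4 the groups lay apart, which the rule that named NBL1 required. IWR1 and MAY24 were named for a small adjusted p, which favours groups apart as well. The meiotic genes HFM1 (1.75 ± 0.20) and REC107 (2.25 ± 0.28), both with introns whose splicing is low outside meiosis, rose as well, and GCR1, an activator of glycolytic genes, rose by 0.86 ± 0.18, a call lost without upf1 DMSO replicate 1. Of 12 genes listed for a regulated or retained intron, 5 rose (41.7%, against 23.2% of all protein-coding genes), and fewer rose without upf1 DMSO replicate 1. RPL30 and RPS14B, whose proteins also bind their own RNA, were not called (0.04 ± 0.09 and 0.16 ± 0.18), nor were DBP2 (-0.27 ± 0.18), SRC1 (0.08 ± 0.18), PTC7 (0.29 ± 0.19) and MTR2 (0.18 ± 0.15).

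A start codon just upstream of the gene's own went with higher RNA in the mutant. Of the 5778 protein-coding genes 518 (8.97%) have an ATG in the 30 bases before the start codon (RefSeq, R64, in any frame and whether or not transcribed), and they made up 16.9% of the genes called higher. Of the genes with such an ATG 43.8% were called higher, with a median difference of 0.50, against 21.2% and 0.08 of the genes without. Their median density was lower, 0.108 against 0.174, but in 9 of the 10 density bins the share called higher was larger with the ATG. In the lowest bin it was 30.6% with and 35.5% without, in the sixth 61.1% (54 genes with an ATG) and 21.2%, and in the highest, with 10 such genes, 10% and 3.17%. An A at position -3, the base most favoured before yeast start codons, was present in 60.5% of all genes and 55.4% of those called higher. The median coding length was 1194 bases over all genes, 1062 over those called higher and 999 over the 45 called lower.

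The largest rises among protein-coding genes of above-median density came from genes of unrelated functions. DAL7, a malate synthase of allantoin use, had densities of 0.0425 and 0.0489 in WT and 0.607 and 0.557 in the mutant (3.58 ± 0.18, adjusted p = 8.88e-06). ISC10 (YER180C, chromosome V, 549724 to 550527), needed for sporulation, had 0.0826 and 0.0833 in WT and 0.853 and 0.716 in the mutant (3.19 ± 0.17), and its neighbour SLO1 (YER180C-A, 550865 to 551122) had 0.0814 and 0.0588 in WT and 0.639 and 0.552 in the mutant (3.04 ± 0.20). In these genes both mutant libraries lay far above both WT libraries, and the rule for the largest rises required groups apart.

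HTL1 (YCR020W-B, chromosome III, 155320 to 155556), a subunit of the RSC chromatin remodeller, went from 0.115 and 0.115 to 0.864 and 0.753 (2.77 ± 0.14). NUT2, a subunit of the Mediator complex, went from 0.0692 and 0.0605 to 0.547 and 0.434 (2.85 ± 0.19), and FLR1, a multidrug transporter of the plasma membrane, from 0.0625 and 0.0714 to 0.475 and 0.446 (2.72 ± 0.16). DFP1 of the DUP240 membrane protein family rose by 3.17 ± 0.14, and YMR158C-A by 3.69 ± 0.45, the latter with only 2 and 7 reads in WT. The other genes of this set were YNR068C (2.93 ± 0.22), YLR125W (2.77 ± 0.17) and YGL193C (2.65 ± 0.19). All of them had mutant libraries beyond both WT libraries, which the rule that named them required.

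XUTs, SUTs and NUTs were called higher more often than mRNAs, and CUTs were not, a comparison that does not allow for density. XUTs are transcripts seen when the cytoplasmic 5′ exonuclease Xrn1 is lost, SUTs are stable unannotated transcripts, CUTs accumulate without the nuclear exosome and NUTs without the termination factor Nrd1. Their coordinates are not used here, and many of these transcripts are known to overlap genes or members of another class. Of 1603 XUTs 958 (59.8%) were higher and 3 lower, with a median of 1.09, and of 809 SUTs 533 (65.9%) were higher and 4 lower, with a median of 1.21. Of 1448 NUTs 509 (35.2%) were higher and 1 lower (median 0.55), and of 898 CUTs 164 (18.3%) were higher and 2 lower (median 0.30). Without upf1 DMSO replicate 1 the NUT count was 302 and the CUT count 97, and without upf1 DMSO replicate 2 they were 334 and 106. The share of XUTs and SUTs that was called lies above the 31.6% of all features, that of CUTs below.

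Levels within each library show the same order without the added constant. The median XUT stood at 4.19 and 4.61% of the protein-coding median in WT and 9.35 and 9.85% in the mutant. The median SUT stood at 5.81 and 6.32% in WT and 13.8 and 14.7% in the mutant, and the median NUT at 2.57 and 3.08% in WT and 4.53 and 4.88% in the mutant. In these 3 classes the mutant libraries lay above both WT libraries. The median CUT stood at 4.32 and 5.37% in WT and 5.12 and 5.86% in the mutant, where the groups overlap. XUTs took 0.254 and 0.283% of reads in WT and 0.896 and 0.917% in the mutant, SUTs 0.167 and 0.190% in WT and 0.636 and 0.649% in the mutant.

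**Figure D3:**
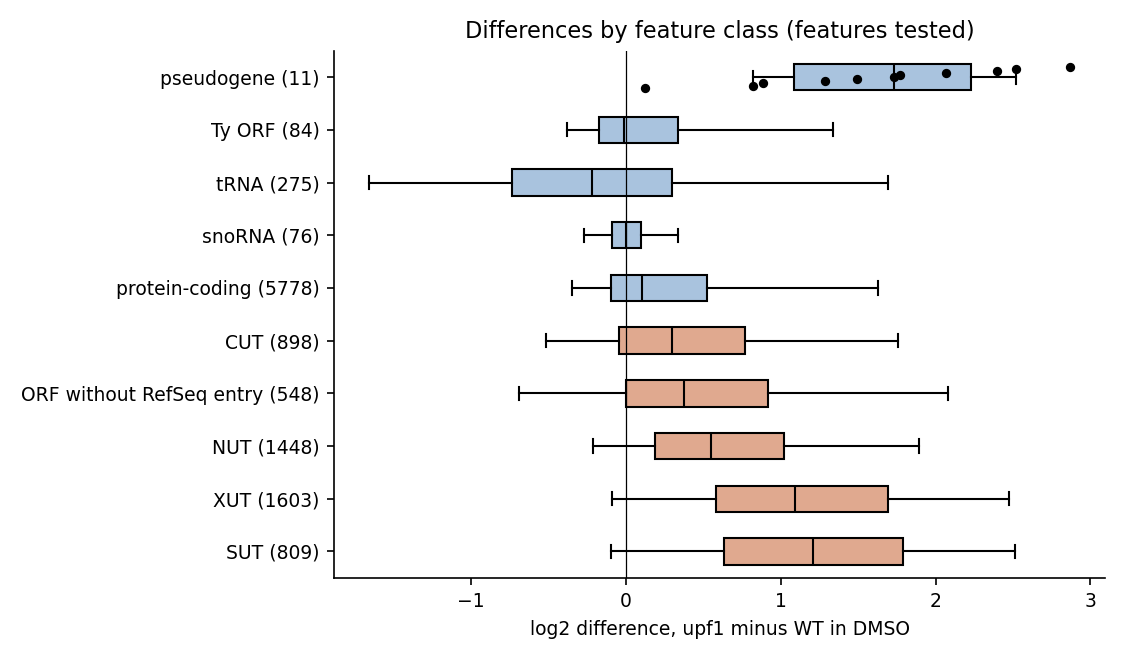
Distribution of the log2 difference (x axis, upf1 minus WT in DMSO) over tested features of each class, with the number of features beside the class name. Boxes span the quartiles with the median as a line, whiskers reach the outermost values within the 5th and 95th percentiles, and the 11 pseudogenes are also drawn as points. The medians of SUTs (1.21) and XUTs (1.09) lie to the right of that of protein-coding genes (0.10), and snoRNAs centre on 0.

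Some noncoding RNAs went from few reads to densities not far from the protein-coding median (0.148 in WT, 0.183 in the mutant). XUT0376 had densities of 0.00792 and 0.0114 in WT, 10 and 20 reads, and 0.147 and 0.153 in the mutant (3.57 ± 0.22, adjusted p = 1.29e-05). XUT1467 had 0.00849 and 0.00886 in WT and 0.142 and 0.123 in the mutant (3.49 ± 0.24). SUT131 had 0.0128 and 0.0215 in WT and 0.224 and 0.238 in the mutant (3.55 ± 0.24). None of these groups overlap, which the rule that named them required.

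XUT0496 had 0 reads in both WT libraries and densities of 0.0407 and 0.0403 in the mutant, and XUT1468 and XUT0788 had 0 and 1 read in WT and densities of 0.0669 and 0.124, and of 0.0450 and 0.0485, in the mutant. SUT745 rose by 3.16 ± 0.24 and SUT262 by 3.17 ± 0.20. The NUTs NUT0672 (0.00216 and 0.00363 in WT, 0.0546 and 0.0556 in the mutant) and NUT0902 (0.00893 and 0.00430 in WT, 0.0725 and 0.0833 in the mutant) were called higher. The CUTs named for their rise by the same rule had at most 2 reads in a WT library, and CUT388 went from 1 read in each to densities of 0.0545 and 0.0463. Few were lower, and those were sparse. XUT0119, with 15 and 14 reads in WT, fell by 1.08 on the log2 scale, a call lost without WT DMSO replicate 1 or upf1 DMSO replicate 2. CUT884, with 12 and 14 reads, fell by 0.88, a call lost when any library but WT DMSO replicate 2 was left out. SUT331, with 10 and 14 reads, fell by 0.70, a call lost when any library but upf1 DMSO replicate 1 was left out.

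The lists of telomere, thiamine, arginine and allantoin genes held larger shares of rises than protein-coding genes as a whole, while that of Gcn4 targets held a smaller one. The lists were drawn from general knowledge. Some share genes with the list of reported NMD substrates, which held STN1, EST3, TEN1, EST2 and EST1 (telomere), THI22 (thiamine), CPA1 (arginine), DAL7 (allantoin) and CRS5 (copper). Their rises are therefore not separate from those of that list. All lists are set against the shares of all protein-coding genes called higher, 23.2%, and lower, 0.779% (22.3% and 11.1% after rescaling). Those levels do not allow for density, along which the share of rises fell from 34.8% in the lowest bin to 3.29% in the highest. Median WT density was 0.148 over all protein-coding genes. It was 0.0568 for the telomere list, 0.0185 for thiamine, 0.0977 for arginine, 0.0559 for allantoin, 0.169 for copper and 0.932 for Gcn4 targets. The copper list held 13.3% rises, but 20% of it differed by at least 1 on the log2 scale, against 12.6% of protein-coding genes. CUP1-2, the largest difference in the copper list (3.54), was not called and had 48 and 0 reads in WT. Of 13 telomere genes 9 rose (69.2%, median 1.23). Besides STN1 and EST3, TEN1, which caps telomeres together with Stn1, went from 0.0411 and 0.0396 to 0.222 and 0.186 (2.24 ± 0.16). The telomerase catalytic subunit gene EST2 rose by 2.04 ± 0.19 and EST1 by 1.57 ± 0.19, while CDC13, the partner of Stn1 and Ten1, was not called (0.20 ± 0.22).

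Of 21 thiamine genes 15 rose (71.4%, median 1.12). THI22, a relative of thiamine biosynthesis kinases, had 0.0583 and 0.0558 in WT and 0.364 and 0.333 in the mutant (2.54 ± 0.16), and THI72, a relative of the thiamine transporter Thi7, had 0.0181 and 0.0184 in WT and 0.107 and 0.0960 in the mutant (2.28 ± 0.20). PET18 rose by 2.29 ± 0.17. Not called were THI7 itself (0.13 ± 0.17) and the kinase gene THI80 (0.03 ± 0.16). THI11, THI12 and THI13 belong to a near-identical family, and how reads that match several members were counted is not given.

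Of 27 genes of allantoin and poor nitrogen sources 14 rose (51.9%, median 0.57), and without upf1 DMSO replicate 1 the count was 8. DAL5, the allantoate permease, had 0.0270 and 0.0315 in WT and 0.290 and 0.259 in the mutant (3.09 ± 0.19), and DAL2, the allantoicase, had 0.0335 and 0.0342 in WT and 0.230 and 0.211 in the mutant (2.58 ± 0.20). Of 13 arginine synthesis genes 8 rose (61.5%, median 0.76), among them CPA1, ARG56 (1.53 ± 0.19), which makes the enzymes of the acetylglutamate steps, and ARG3, the ornithine carbamoyltransferase, from 0.0115 and 0.0107 to 0.0401 and 0.0341. Of 38 other genes of the Gcn4 regulon, GCN4 included, 3 rose and none fell by limma (7.89%, median -0.07, 0 lower at an unadjusted p below 0.05), and 4 rose and 11 fell after rescaling (3 and 23 over all 8 libraries). GCN4 itself, whose mRNA has upstream reading frames, went from 2.42 and 2.45 to 3.89 and 3.80 (0.66 ± 0.14, adjusted p = 0.00525).

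Among 25 genes of the iron regulon 9 were higher and 3 lower (median 0.11), and 9 rose and 5 fell after rescaling, where the median was -0.02 (9 and 9 over all 8 libraries). The cell surface reductase genes FRE2, from 0.0173 and 0.0238 to 0.143 and 0.141 (2.61 ± 0.20), and FRE3 (2.24 ± 0.17) and the siderophore transporter gene ARN2 (1.54 ± 0.18) rose. The high-affinity uptake pair fell, FET3, the ferroxidase, from 2.31 and 2.04 to 0.988 and 1.07 (-1.08 ± 0.18, adjusted p = 0.00123) and FTR1, its permease, from 0.939 and 0.806 to 0.485 and 0.547 (-0.75 ± 0.23, adjusted p = 0.0286). SIT1, another siderophore transporter, fell by 0.63 on the log2 scale. Without WT DMSO replicate 1 or upf1 DMSO replicate 2 the count of falls was 1.

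Of 5 magnesium transport genes 3 rose, ALR2 (2.14 ± 0.18), ALR1 and MNR2 (0.56 ± 0.17), the last of which lost its call when any of the 4 libraries was left out. In sulfur assimilation 6 of 25 rose (24%) and 2 fell (7 and 5 after rescaling, 6 and 8 over all 8 libraries), with 0 or 1 falls when any of the 4 libraries was left out. MET1, which acts in the synthesis of sirohaem, went from 0.0336 and 0.0408 to 0.239 and 0.199 (2.45 ± 0.20), and MET10, a sulfite reductase subunit, rose by 1.31 ± 0.17. In pyrimidine synthesis 3 of 11 rose (27.3%; 4 rose and 3 fell after rescaling, 3 and 5 over all 8 libraries), URA10 (1.96 ± 0.17), PPR1 and URA1, the dihydroorotate dehydrogenase and a known target of Ppr1, from 2.65 and 2.76 to 4.61 and 4.15 (0.69 ± 0.13). Of 15 copper genes 2 rose (13.3%; 1 rose and 2 fell after rescaling, 2 and 5 over all 8 libraries), CRS5 and the transporter gene CTR3 (1.05 ± 0.24), and of these CTR3 was not called by limma after rescaling (adjusted p = 0.0603) but was over all 8 libraries (adjusted p = 0.0156). The 2 rises became 1 without WT DMSO replicate 2 or upf1 DMSO replicate 2 and 0 without upf1 DMSO replicate 1.

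Meiosis and sporulation genes, normally silent in haploid cells, rose in 13 of 24 cases (54.2%, median 1.22) from low levels. IME2, a kinase of meiotic entry, had 0.0184 and 0.0193 in WT and 0.153 and 0.129 in the mutant (2.69 ± 0.18). RED1, of the meiotic chromosome axis, had 0.0146 and 0.0198 in WT and 0.0974 and 0.0818 in the mutant (2.18 ± 0.21), and SPS4 rose by 2.21 ± 0.17. Of 35 general stress genes 16 rose and none fell by limma (45.7%, median 0.43, 1 lower at an unadjusted p below 0.05), and 16 rose and 2 fell after rescaling (15 and 5 over all 8 libraries). ALD3, an aldehyde dehydrogenase, rose by 2.18 ± 0.19, the reticulon gene RTN2 by 2.09 ± 0.20 and SSA3, an Hsp70 gene induced by stress, from 0.0651 and 0.0718 to 0.255 and 0.224 (1.75 ± 0.18). Heat shock factor targets held 3 rises of 24 (12.5%, median 0.13), with 1 fall after rescaling and 6 over all 8 libraries.

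Several genes of the cell's own mating type were lower and some of the opposite type higher. Of 7 a-cell genes 4 fell (57.1%, median -0.41), against 0.779% of all protein-coding genes, and 5 fell under either rescaling. Of these genes 2 fell on the deposited scale when WT DMSO replicate 1, WT DMSO replicate 2 or upf1 DMSO replicate 2 was left out. MFA1, an a-factor gene, had 2.15 and 1.83 in WT and 0.979 and 0.982 in the mutant (-1.01 ± 0.13, adjusted p = 0.000213). ASG7 had 0.121 and 0.101 in WT and 0.0326 and 0.0323 in the mutant (-1.67 ± 0.21), and BAR1, the protease that degrades alpha factor, fell by 0.57 on the log2 scale. The other a-factor gene, MFA2, and the alpha-factor receptor gene STE2 were not called (0.06 ± 0.14 and 0.07 ± 0.12). Of 4 alpha-cell genes SAG1, the alpha-agglutinin, had 0.0440 and 0.0541 in WT and 0.229 and 0.213 in the mutant (2.10 ± 0.18), and STE3, with 17 and 6 reads in WT, was called higher (1.57 ± 0.32) but not after rescaling by limma (adjusted p = 0.0629), though it was over all 8 libraries (adjusted p = 0.014). STE2 and MFA2, which define a cells, were abundant in all 4 libraries, with STE2 between 1.96 and 2.19, while the alpha-specific receptor gene STE3 stayed at or below 0.0206.

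**Figure D4:**
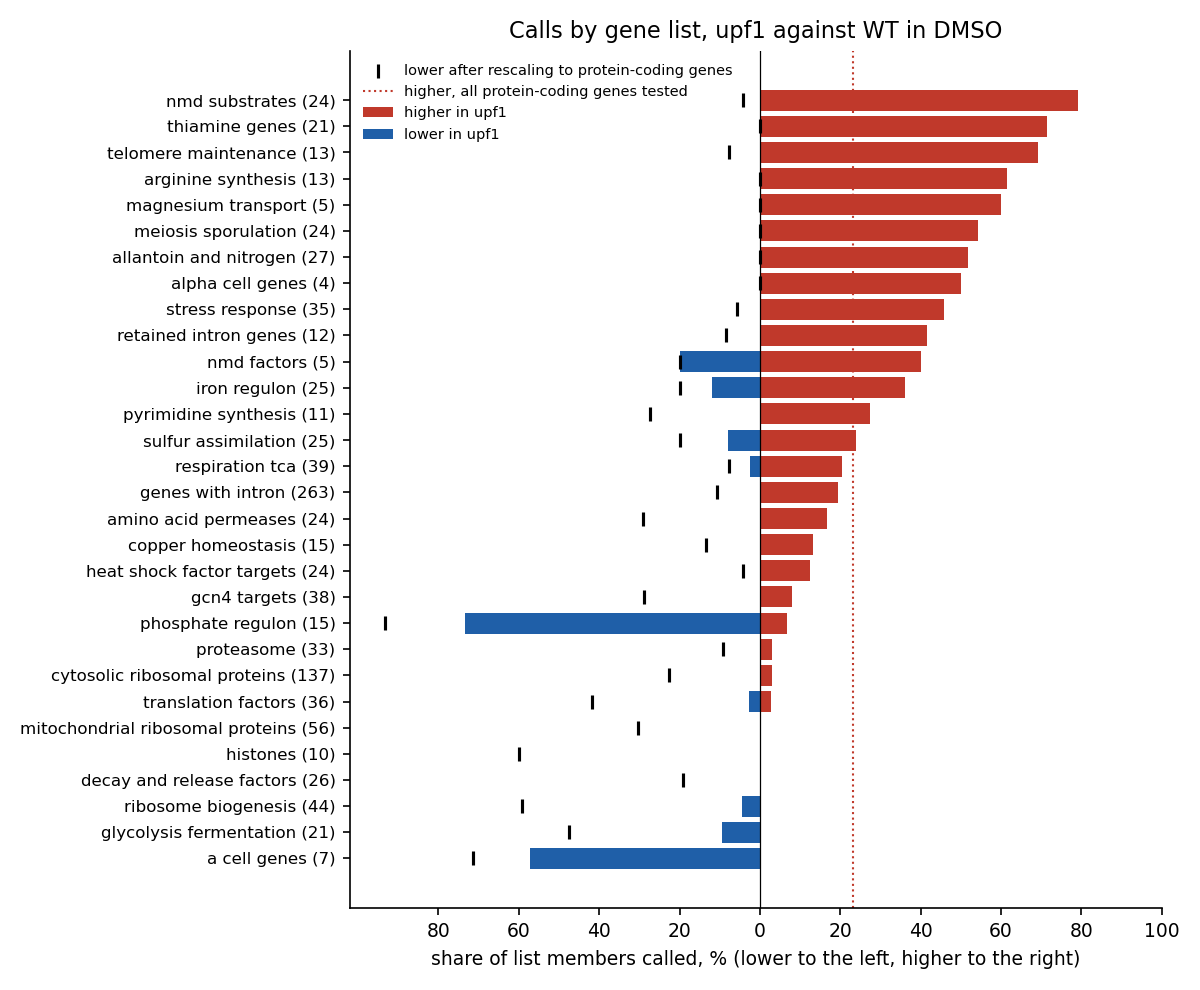
Share of each gene list (members tested in brackets) called higher in upf1 (red, right) or lower (blue, left) in DMSO, in percent (axis). The dotted line marks the 23.2% of all protein-coding genes called higher, and the black ticks the share called lower after rescaling to protein-coding genes. NMD substrates (79.2%), thiamine genes (71.4%) and telomere genes (69.2%) stand farthest right, and the phosphate regulon (73.3% lower) farthest left. Some lists share genes, such as STN1 and THI22.

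The phosphate regulon was the list with the most falls on the deposited scale. Of its 15 genes 11 fell (73.3%) and 1 rose (median -0.72), against 0.779% of all protein-coding genes lower. After rescaling 14 fell, with a median of -0.84, against 11.1% of protein-coding genes, and 14 fell over all 8 libraries, against 29.8%. PHO89, a sodium-phosphate cotransporter, had 0.128 and 0.163 in WT and 0.0248 and 0.0144 in the mutant (-2.73 ± 0.25, adjusted p = 3.72e-05). SPL2, which damps low-affinity phosphate uptake, had 0.561 and 0.550 in WT and 0.186 and 0.156 in the mutant (-1.68 ± 0.14, adjusted p = 2.42e-05). PHO12, an acid phosphatase near-identical to PHO11 and so subject to the same doubt about shared reads, had 0.631 and 0.593 in WT and 0.227 and 0.198 in the mutant (-1.51 ± 0.16). In each the mutant libraries lay below both WT libraries, which the rule that named SPL2 and PHO12 required.

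PHO84, the high-affinity phosphate transporter, went from 6.99 and 7.63 to 4.36 and 4.04 (-0.80 ± 0.13, adjusted p = 0.00103), and VTC3, VTC1 and VTC4, of the complex that makes polyphosphate, fell by 0.88, 0.72 and 0.67 on the log2 scale. PHO8, the vacuolar alkaline phosphatase, fell by 0.82, a call lost without WT DMSO replicate 1. The rise in the list was PHM8, a nucleotidase gene (0.65 ± 0.19), which was not called after rescaling the 4 libraries nor when any library but upf1 DMSO replicate 2 was left out, and the list again had 1 rise over all 8 libraries. Outside the list, HXT2, a glucose transporter, was among the largest falls, from 1.72 and 2.54 in WT to 1.12 and 1.2 in the mutant (-0.85 ± 0.18, adjusted p = 0.00514), a call lost without WT DMSO replicate 2 (-0.56, adjusted p = 0.0565).

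Most lists of growth and translation genes had few calls on the deposited scale, and the calls depended on the scale. Of 137 cytosolic ribosomal protein genes 4 rose and none fell by limma on the deposited scale (2.92%, median -0.09, 2 lower at an unadjusted p below 0.05), and 4 rose and 31 fell after rescaling (2 and 104 over all 8 libraries). The rises included RPL22B, RPL28 (0.48 ± 0.12) and RPS30A (0.42 ± 0.11), of which the latter 2 were not called after rescaling over all 8 libraries, and the count was 1 or 2 when any of the 4 libraries was left out. Of 44 ribosome biogenesis genes 2 fell (median -0.29, range -0.71 to 0.02) and 26 after rescaling (42 over all 8 libraries). By limma 8 of them were lower and 0 higher at an unadjusted p below 0.05. Of 36 translation factor genes 1 rose and 1 fell (median -0.15), with 15 falls after rescaling (31 over all 8 libraries). HEF3, a translation elongation factor gene little used in growing cells, was the rise, from 0.0156 and 0.0177 to 0.0851 and 0.0749 (2.06 ± 0.19). Glycolysis and fermentation had 2 falls of 21 (median -0.33, 10 after rescaling, 15 over all 8 libraries), TDH1 and TDH2, with near-identical sequences, both of which lost their calls when any of the 4 libraries was left out. At an unadjusted p below 0.05 in limma, 8 genes of this list were lower and 1 higher. The falls in ribosome biogenesis and in translation factors numbered 0 or 1 without WT DMSO replicate 1, WT DMSO replicate 2 or upf1 DMSO replicate 2. Respiration held 8 rises and 1 fall of 39 (8 and 3 after rescaling, 3 and 10 over all 8 libraries), with 1 to 3 rises when any of the 4 libraries was left out. Of 24 amino acid permease genes 4 rose and none fell by limma (1 at an unadjusted p below 0.05, 7 after rescaling, 12 over all 8 libraries). Of 33 proteasome genes 1 rose (2, with 3 falls, after rescaling, 1, with 22 falls, over all 8 libraries, and 0 without upf1 DMSO replicate 1). Histone genes (10) and mitochondrial ribosomal protein genes (56) had no call by limma on the deposited scale (none of the histone genes, and 1 higher and 1 lower of the mitochondrial set, at an unadjusted p below 0.05), and 6 and 17 falls after rescaling (6 and 29 over all 8 libraries).

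The genotype difference was smaller when translation elongation was blocked. In the 4 anisomycin libraries 312 features (2.69%) were higher in upf1 and 25 (0.216%) lower, and of protein-coding genes 95 (1.64%) and 20 (0.346%). Of the 1340 protein-coding genes higher in DMSO, 1257 (93.8%) differed in the same direction under anisomycin, against 48.7% of all protein-coding genes, and 90 were called there, and their median difference was 1.05 in DMSO and 0.30 under anisomycin. Of the 958 XUTs higher in DMSO 882 (92.1%) had the same direction, against 83.7% of all XUTs, with medians of 1.57 and 0.57. For SUTs the medians were 1.59 and 0.59. For the 45 protein-coding falls the medians were -0.73 and -0.55. The genes were chosen on their DMSO values and not on their anisomycin values, so the medians are not on equal terms.

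The test of the difference between the 2 conditions itself, the interaction term over all 11579 features, called 968 (8.36%) with a smaller or more negative genotype difference under anisomycin and 22 (0.19%) with a larger one, and of protein-coding genes 372 (6.44%) and 3 (0.0519%). Of the 1340 protein-coding genes 370 were among the 968, as were 250 of the XUTs and 188 of the SUTs. The count of 968 was 13 without upf1 DMSO replicate 1, 335 without upf1 DMSO replicate 2, 554 without WT DMSO replicate 1 and 889 without WT DMSO replicate 2. DAL7, with densities under anisomycin of 0.351 and 0.482 in WT and 1.11 and 0.998 in the mutant, differed by 1.35 ± 0.18 there (adjusted p = 0.0135) against 3.58 in DMSO. NAM7, the disrupted gene, differed by -5.76 under anisomycin and -5.00 in DMSO, and PHO89 by -2.31 and -2.73.

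**Figure D5:**
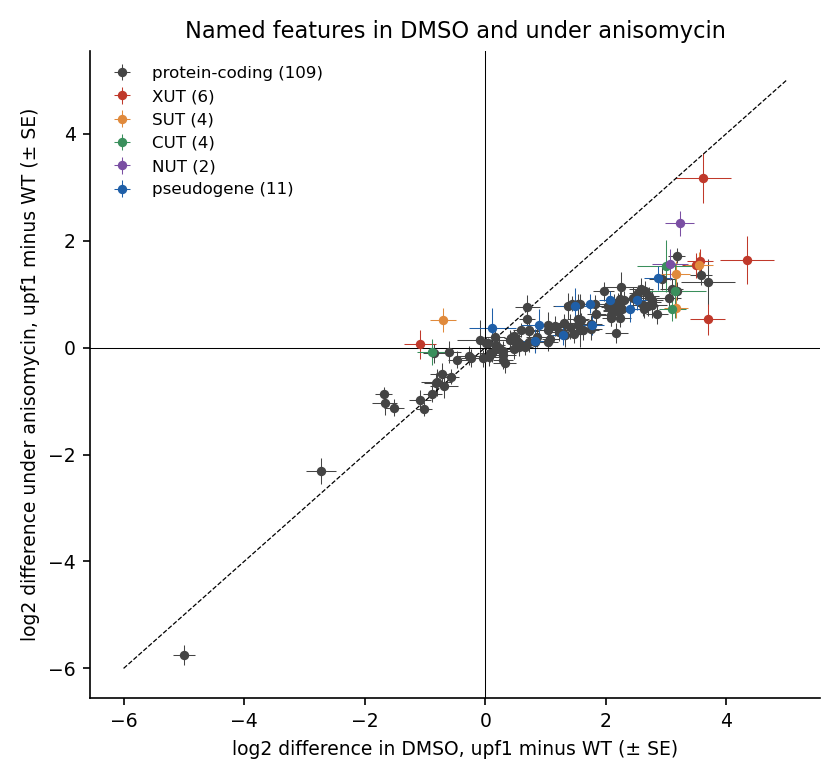
Log2 difference between upf1 and WT in DMSO (x axis) and under anisomycin (y axis) for the 136 named features that were tested, coloured by class, with the SE of the fit as bars. The dashed line marks equal differences. Of the 97 features called higher in DMSO, 96 lie below it, and the falls lie closer to it. Many were named for their difference in DMSO, which by itself favours a smaller value under anisomycin. The share below the line over all tested features was not counted.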

How the data were processed

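Strand-specific total RNA was sequenced from 8 libraries, 2 biological replicates each of WT and upf1 in DMSO and under anisomycin. Groups were taken from the sample labels. The deposited values are normalized densities, a signal of reads per nucleotide times 1 factor per library, whose basis is not given in the sources used here. The submitters' processing notes name DESeq2, featureCounts 2.0.0, HISAT2 2.2.0 and Trim Galore, and build R64, without their roles. The 4 mean columns by the authors equal the mean of their 2 libraries and were not used. A spike-in is named in the labels' protocols and was not used here.

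Dividing each feature's densities by their common step gave whole reads for 11954 features (tolerance 1e-05), with totals of 6954353 to 10637051 in the DMSO libraries, and 1323 features stayed under 10 reads in every library. These reads served only to describe depth. Densities were tested as log2(density + 0.003397), the constant being the 5th percentile of values above 0, with limma 3.58.1 in R 4.3.3, a mean per group over 8 libraries, a variance trend and Benjamini-Hochberg adjustment, called below 0.05. The 387 features with a mean below the constant were left out. The fit had 4 residual degrees of freedom and a median of 9.69 after moderation, and was tested on simulated data. Alternatives were rescaling to protein-coding genes, the DMSO libraries alone, other constants, filters and variance models, a replicate block, and leaving out each library.

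Names and coordinates came from RefSeq R64, which matched 6111 features. Named genes are the 12 largest rises and 8 largest falls among called protein-coding genes of above-median density with groups apart, 5 XUTs, 3 SUTs, 3 CUTs and 2 NUTs by the same rule with up to 2 falls each, up to 3 called members of each list with the smallest adjusted p, and the NMD, frameshift and intron lists in full. Genes named beyond this rule (CDC13, THI7, THI80, FTR1, SIT1, PHO84, VTC1, VTC4, PHM8, MFA2 and STE2) were chosen after their values were seen. The genes, lists and comparisons were chosen with earlier results of these data known. Log2 differences, counts of calls and medians are descriptive of each list, with no test of a list.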

Additional observations from a re-analysis of the deposited data

Results flagged for a closer look

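For 64 of the named features the genotype difference under anisomycin departed from that in DMSO by the interaction term of the limma fit, at an adjusted p below 0.05 over all 11579 features. Values below are the log2 difference under anisomycin minus that in DMSO, so a negative value for an RNA that rose in DMSO is a smaller rise under anisomycin. Over all features, the 968 interaction calls toward a smaller difference numbered 13 without upf1 DMSO replicate 1 and 335 without upf1 DMSO replicate 2, and how many of the 64 were among these was not counted. Many of the named features were picked for their difference in DMSO, which by itself favours a smaller value under anisomycin. No explanation was tested.

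Among the largest protein-coding rises the values were -2.47 for YMR158C-A, -2.23 for DAL7, -2.12 for ISC10, -1.46 for DFP1, -2.11 for SLO1 and -1.64 for YNR068C. They were -2.22 for NUT2, -1.88 for YLR125W, -1.92 for HTL1, -1.97 for NBL1, -1.76 for FLR1 and -1.59 for YGL193C. Noncoding RNAs stood at -2.71 for XUT1468, -3.16 for XUT0496, -1.94 for XUT0376, -1.96 for XUT1467, -1.995 for SUT131, -2.42 for SUT262, -1.79 for SUT745 and -2.39 for CUT388. The NMD factors NMD4 and EBS1 had -1.53 and -0.93.

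Reported NMD substrates had -1.92 (STN1), -1.52 (THI22), -1.22 (EST3), -1.33 (TEN1), -1.26 (EST2), -1.29 (PGA1) and -1.01 (CPA1). Pseudogenes had -1.05 (FLO8), -0.91 (SDC25), -1.35 (CCW22), -1.18 (AAD6), -1.62 (SDL1), -1.68 (YIR043C) and -1.57 (YOL153C). Genes with an intron had -1.06 (RPL22B), -1.40 (HFM1), -1.42 (MAY24) and -1.31 (IWR1).

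In the metabolic lists the values were -0.92 for URA10, -1.46 for ALR2, -1.82 for FRE2, -1.69 for FRE3, -1.01 for ARN2, -1.40 for PET18, -1.55 for THI72, -1.99 for DAL5 and -1.49 for DAL2. For the amino acid genes they were -1.22 for ARG3, -1.11 for ARG56, -0.92 for HIS5, -1.52 for MET1 and -0.93 for MET3. Other lists gave -1.29 for HEF3, -1.91 for ALD3, -1.49 for RTN2, -1.32 for SSA3, -1.34 for SAG1, -1.92 for IME2, -1.35 for SPS4 and -1.50 for RED1.

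The 2 flagged features that were lower in DMSO had positive values, 0.81 for SPL2 and 1.22 for SUT331, the latter with 10 and 14 reads in WT DMSO.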

How the results depend on the processing

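No named feature that was called changed its direction under any of the alternatives run, while the counts of falls moved widely. Over 136 named features and 13 alternatives, 1634 of 1765 values had the same direction and side of the threshold, 103 lost their call, 8 gained one and 20 changed sign, none of the last being called in either fit. After rescaling over 8 or 4 libraries the sign changed for UPF3 (-0.167 and -0.0509), SSY5 (-0.137 and -0.0185), SRC1 (-0.160 and -0.0422), RPL30 (-0.203 and -0.0836) and SEC14 (-0.229 and -0.110), and over 8 libraries alone for MAC1 (-0.0167), CTR2 (-0.0676), RPS14B (-0.0896) and MTR2 (-0.0590). When 1 library was left out in turn, values ran from -0.0309 to 0.170 for UPF3, from -0.0347 to 0.1998 for SRC1, from -0.0640 to 0.10 for SEC14, from -0.145 to 0.0661 for ABP140 and from -0.57 to 0.382 for ISF1, which was 0.00389 without WT DMSO replicate 2.

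Rescaling to protein-coding genes raised the falls over all features to 1888 (8 libraries) or 710 (4 libraries), among protein-coding genes to 1719 or 643, among CUTs to 30 or 7, among NUTs to 36 or 12 and among XUTs, over 8 libraries, to 16. The 4 DMSO libraries alone gave 201 falls over all features, 163 among protein-coding genes, 2 among SUTs, 4 among CUTs and 4 among NUTs. With 5 times the added constant the falls of XUTs, SUTs, CUTs and NUTs were 1, 1, 0 and 0, and with a filter at 5 times it those of XUTs, SUTs and CUTs were 1, 1 and 1. Without a filter SUTs had 2 falls, and without the variance trend protein-coding genes had 25 and NUTs 4. Under anisomycin the rises were 629 after rescaling over 8 libraries, 827 and 149 with 5 and 0.2 times the constant, and the falls 219, 62 and 15. Interaction calls toward a larger difference were 84 after rescaling and 10 with 5 times the constant, and those toward a smaller one 360 with the latter. The cause of these moves was not tested.

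Leaving out each DMSO library in turn, with the lone library of a group assumed to vary like the other groups, gave 2471 to 3183 rises and 36 to 76 falls over all features, 831 to 1045 and 18 to 44 among protein-coding genes, 709 to 891 and 1 to 3 among XUTs, 425 to 504 and 1 to 4 among SUTs, 97 to 172 and 3 to 5 among CUTs, 302 to 417 and 0 to 2 among NUTs, and 8 to 9 pseudogenes higher. Under anisomycin the rises were 107 to 369 and the falls 13 to 27, and interaction calls numbered 13 to 889 toward a smaller difference and 2 to 25 toward a larger one. The deviations of WT and upf1 DMSO replicate 1 from their group means correlated at 0.0495 over the tested features. With 2 libraries a group, replicate 2 mirrors replicate 1, so this value cannot settle whether replicate numbers pair the libraries. A fit with the replicate number as a block called 3560 features higher and 81 lower, and lost MNR2 and YPL276W among the named features. It called 4 rises in the respiration list, against 8 without the block.

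With 2 libraries a group and fewer than 10 reads for 1323 features, small differences of sparse RNAs were not detectable at this depth.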

Other observations

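RNAs outside the gene lists, looked at after their values were seen, held some large differences between upf1 and WT in DMSO. Of the 4 tested reading frames of the 2-micron plasmid, a selfish DNA circle of yeast nuclei, R0010W had densities of 0.189 and 0.267 in WT and 1.28 and 1.43 in the mutant (log2 difference 2.57 ± 0.19, SE) and R0040C 0.846 and 0.891 in WT and 5.30 and 5.23 in the mutant (2.60 ± 0.12). R0030W rose by 0.60 ± 0.17, and R0020C was not called by limma (0.40 ± 0.20, adjusted p = 0.166). Plasmid copy number was not measured, so its part in these values was not tested.

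Of 17 other annotated noncoding RNAs 4 were called higher (23.5%, median 0.05), against 31.6% of all features. ICR1, transcribed across the promoter of the flocculin gene FLO11, went from 0.0412 and 0.0504 to 0.253 and 0.247 (2.37 ± 0.24). SRG1, transcribed across the promoter of SER3, went from 0.513 and 0.491 to 1.08 and 1.02 (1.06 ± 0.12), and SER3 itself, a serine synthesis gene that SRG1 transcription is known to repress, went from 0.234 and 0.236 to 0.660 and 0.633 (1.45). TLC1, the telomerase RNA, was not called (0.05 ± 0.16), unlike the telomerase protein genes.

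FUS1, FUS3 and PRM5, which act in or respond to mating pheromone signalling, were called lower (-0.81 ± 0.17, -0.64 ± 0.20 and -0.56 ± 0.15 on the log2 scale), while STE2 and MFA2 were not called (0.07 and 0.06). The CUP1 metallothionein copies differed between WT replicates, with 46 and 1 reads of CUP1-1 and 48 and 0 reads of CUP1-2, against 76 and 76 and 84 and 116 reads in the mutant. How reads that match both copies were counted is not given. Of 275 tRNA features 7 were called higher and 14 lower, on few reads.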
